A study of Mus musculus with 4 samples.

Results

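Ly6a, Ly6c1, Ly6e, Ly6d, Ly6k and Ly6g6c are 6 of the 53715 genes in the table of mouse blastocyst expression, found by their gene names, and all 6 names matched. They were chosen because Ly6a stood out in the library treated with 2-hydroxyglutarate (2-HG), so its level there is the reason for the choice and is given as a description. The table holds 4 libraries of C57BL/6 embryos, 1 library per group. Zygotes came from the oviduct, grew in KSOM (an embryo culture medium), and from the stage with 2 pronuclei were given α-ketoglutarate (α-KG, 0.15 mM) or 2-HG (0.3 mM). The negative controls, 1 for each compound, are called the α-KG control and the 2-HG control, and the labels name no other agent. RNA of blastocysts was sequenced in bulk. The labels give no embryo number per library, no sex, no embryo age and no enantiomer of 2-HG.

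Ly6 proteins are small, cysteine-rich proteins of a fold called the uPAR domain. Most of them are held on the outer face of the cell membrane by a glycosylphosphatidylinositol (GPI) lipid anchor. In the mouse, many sit in a block of duplicated genes on chromosome 15, and they are best known as surface markers of blood cells. Ly6a encodes Sca-1, the antigen used to sort haematopoietic stem cells, and Ly6a, Ly6c1 and Ly6e are known to respond to interferon in adult cells.

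The blastocyst label was checked against lineage genes. Krt8 and Krt18, keratins of the trophectoderm, were at 1985 to 2523 TPM and 3607 to 4339 TPM over the 4 libraries. TPM is a level scaled by transcript length and to the same total in every library, so it can be compared between genes. Cdx2 was at 13.5 to 17.3 TPM, Nanog of the epiblast at 44.2 to 75.2 TPM, and Gata6 of the primitive endoderm at 161 to 212 TPM. Some lineage genes were lower and less even. In the order α-KG control, α-KG, 2-HG control and 2-HG, Sox2 of the epiblast was at 8.91, 9.18, 2.38 and 1.92 TPM. In that order, Fgf4 of the epiblast was at 4.11, 6.41, 0.98 and 2.48 TPM. Elf5 of the trophectoderm was at 6.90, 1.20, 0.76 and 0.78 TPM. Between 9062 and 9417 genes reached 5 TPM in a library. The primitive endoderm genes Sox17, Sox7 and Gata4 stayed low, with highest values of 1.67, 1.25 and 0.99 TPM.

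Ly6a and Ly6c1 are alike enough in sequence that short reads cannot always tell them apart, which bears on their values. Their coding sequences were identical at 300 of 393 aligned bases (76.3%). The first 126 coding bases, a stretch of close likeness, are shown from the start codon with the bases that differ between the genes in capitals. In the spliced transcripts (GENCODE M21, GRCm38, minus strand) the Ly6a stretch spans chr15:74996513-74997604 and the Ly6c1 stretch chr15:75047414-75048511.
Ly6a: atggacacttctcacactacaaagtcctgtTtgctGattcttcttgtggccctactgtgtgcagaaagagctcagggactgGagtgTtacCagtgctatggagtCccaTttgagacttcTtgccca
Ly6c1: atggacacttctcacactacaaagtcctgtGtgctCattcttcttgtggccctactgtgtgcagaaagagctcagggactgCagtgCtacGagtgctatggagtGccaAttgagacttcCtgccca

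The stretches differ at 8 of 126 bases, and the longest run without a difference is 45 bases. Of the 1297 different 50-base stretches in annotated Ly6a transcripts, 195 also occur in Ly6c1 transcripts, and 1.45% of 100-base stretches do. Seen from Ly6c1, 11.1% of its 50-base stretches occur in Ly6a and 21.5% in Ly6c2, a close copy of Ly6c1. Ly6e, Ly6d and Ly6g6c shared no 50-base stretch with any other annotated gene. Of the 50-base stretches of Ly6k, 32.7% lie in Gm17189, an antisense gene that overlaps its exons on the opposite strand. Ly6a, Ly6c1, Ly6e and Ly6d share no exon with another annotated gene.

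Ly6a had 403 TPM in the α-KG control, 310 TPM with α-KG, 352 TPM in the 2-HG control and 1528 TPM with 2-HG. The 2-HG library stood alone, at 3.79 times the highest of the others, which lay within 1.30-fold of each other. The gene lies on chromosome 15, from 74994877 to 74998031 on the minus strand (ENSMUSG00000075602.10). By level it ranked 425th of all genes in the α-KG control, 594th with α-KG, 542nd in the 2-HG control and 73rd with 2-HG. In bulk embryos, more cells that make an RNA and more RNA per cell cannot be told apart. There is 1 library per group, so no difference here has a replicate check and no test was run.

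On the log2(TPM + 1) scale, the difference between 2-HG and its control was 2.11 for Ly6a, or 4.34-fold in TPM. It was -0.38 between α-KG and its control and -0.20 between the 2-HG control and the α-KG control. That last comparison shares a library with each of the others. Among the 1744 genes at 100 TPM or more with 2-HG, Ly6a had the largest higher difference from the 2-HG control. Among all 9834 genes measured in the pair, meaning at least 5 TPM in 1 of both libraries, it ranked 38th. A gene was called when it was measured and differed by at least 1, which is 2-fold on this scale. By this rule 2.36% of the 9834 genes were higher with 2-HG, 5.65% were lower, and the median difference was -0.12. These are 232 genes higher and 556 lower, and median-of-ratios scaling gave 297 higher and 443 lower.

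**Figure D1:**
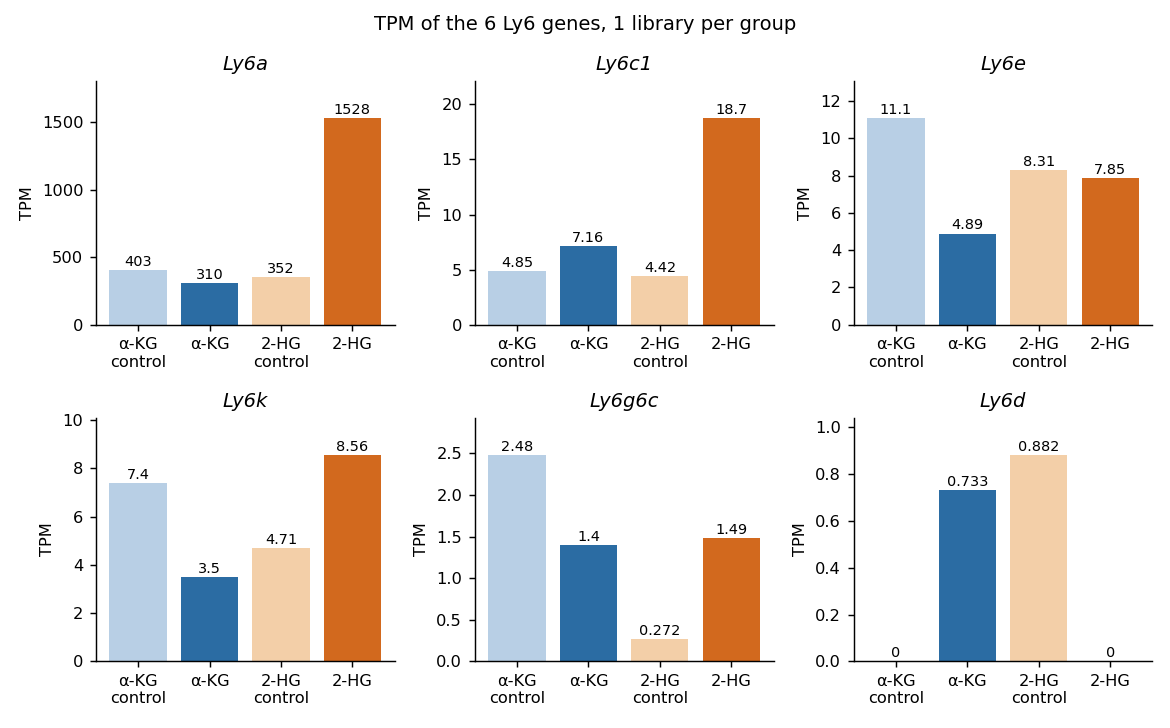
TPM (vertical axis, linear, from 0, with its own range in each panel) of the 6 genes in the 4 libraries; each bar is 1 library and there are no error bars because no group has replicates. Ly6a (1528 TPM) and Ly6c1 (18.7 TPM) are highest with 2-HG, Ly6e is lowest with α-KG (4.89 TPM), and Ly6d stays below 1 TPM.

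Ly6c1 encodes an antigen of monocytes, some T cells and endothelium. It had 4.85 TPM in the α-KG control, 7.16 TPM with α-KG, 4.42 TPM in the 2-HG control and 18.7 TPM with 2-HG. Again the 2-HG library was the highest, at 2.62 times the next one, and the others lay within 1.62-fold of each other. The difference with 2-HG was 1.87 on the log2(TPM + 1) scale, or 4.24-fold in TPM. Ly6c1 reached the 5 TPM minimum of that pair through the 2-HG library alone. With α-KG the difference was 0.48, opposite in sign to that of Ly6a. The gene lies on chromosome 15, from 75044018 to 75048830 on the minus strand (ENSMUSG00000079018.10), with its start 50.8 kb from that of Ly6a.

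The Ly6c1 level was 1.20% of that of Ly6a in the α-KG control, 1.26% in the 2-HG control and 1.23% with 2-HG, and 2.31% with α-KG. So in all libraries but the α-KG one the levels of these genes stood in nearly the same ratio. Whether reads of Ly6a were counted for Ly6c1 was not tested. Ly6c2, the gene that shares the most 50-base stretches with Ly6c1, was listed at 0 in all 4 libraries. Ly6i, which holds 2.39% of the 50-base stretches of Ly6a, was at 0, 0.66, 0.25 and 0.35 TPM in the order α-KG control, α-KG, 2-HG control and 2-HG.

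**Figure D2:**
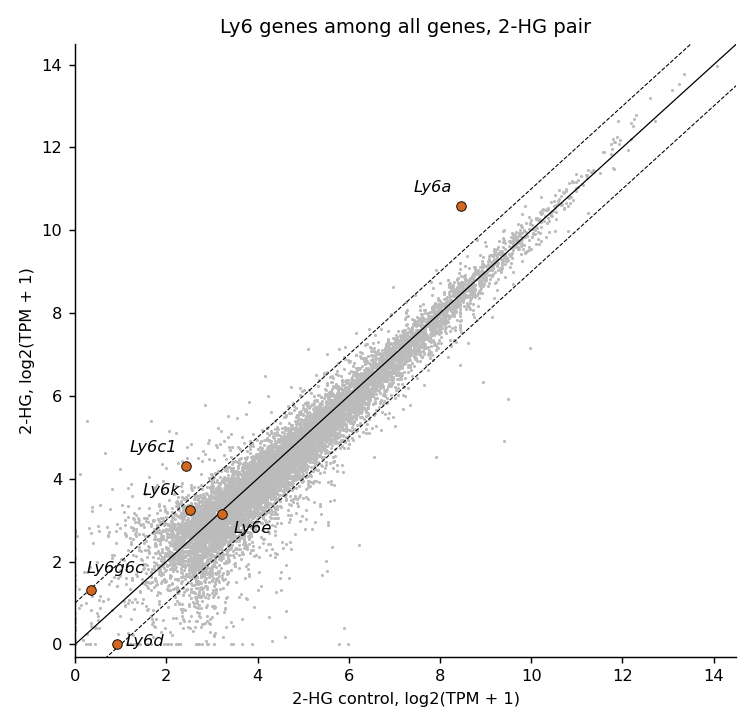
Each grey point is 1 gene that reached 5 TPM in a library, with log2(TPM + 1) in the 2-HG control on the horizontal axis and in the 2-HG library on the vertical axis; the solid line marks equal levels, the dashed lines 2-fold, and orange points are the 6 Ly6 genes. Ly6a lies 2.11 above the solid line at a high level, Ly6c1 lies 1.87 above it at a low level, and Ly6e lies close to it.

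Ly6e, the receptor of the placental fusogen syncytin-A in the mouse, had another order. It had 11.1 TPM in the α-KG control, 4.89 TPM with α-KG, 8.31 TPM in the 2-HG control and 7.85 TPM with 2-HG. The α-KG library was the lowest and the 2-HG pair was nearly level, at a difference of -0.07 on the log2(TPM + 1) scale. The sign of that small difference turned with median-of-ratios scaling, to 0.03. With α-KG the difference was -1.04, just past the 2-fold rule, by which 3.10% of 9878 genes were lower with α-KG. Set against the 2-HG control, the α-KG library differed by -0.66, under the rule. Ly6e lies on chromosome 15, from 74955051 to 74959905 on the plus strand (ENSMUSG00000022587.14). Among genes of the syncytiotrophoblast, the fused cell layer of the placenta, Synb and the factor Gcm1 were listed at 0 in all libraries. Syna, the gene of syncytin-A, was at 0.26, 0.20, 0.28 and 0.65 TPM in the order α-KG control, α-KG, 2-HG control and 2-HG. Slc16a3 did not exceed 0.76 TPM, and Slc16a1 was at 19.7 to 24.9 TPM.

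Ly6k encodes a sperm protein needed for male fertility in mice. It had 7.40 TPM in the α-KG control, 3.50 TPM with α-KG, 4.71 TPM in the 2-HG control and 8.56 TPM with 2-HG. The 2-HG library was the highest but lay only 1.16-fold above the α-KG control. Its differences were 0.74 with 2-HG, -0.90 with α-KG and -0.56 between the controls, all under the 2-fold rule. The antisense Gm17189, under its clone name RP23-230O9.3 in the table, was at 0, 0, 0.49 and 0.62 TPM in the order α-KG control, α-KG, 2-HG control and 2-HG. The sources used here do not say whether counting used strand, so these genes cannot be told apart where they overlap. Ly6k lies on chromosome 15, from 74796874 to 74799986 on the minus strand (ENSMUSG00000044678.11).

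The remaining members were near the floor of the table. Ly6g6c, of the gene-dense class III region of the major histocompatibility complex on chromosome 17 (35065388 to 35070050, plus strand, ENSMUSG00000092586.8), was at 2.48, 1.40, 0.27 and 1.49 TPM in the order α-KG control, α-KG, 2-HG control and 2-HG. Its lowest value was in a control, and its highest in the other control. The difference with 2-HG was 0.97, and against the α-KG control it turned to -0.49, so its direction depends on the control. Exons of Ly6g6c overlap G6b on the opposite strand, which was at 0, 0.20, 0.81 and 0.45 TPM in the same order. Ly6d, which in mice marks lymphoid progenitors bound for the B lineage, was listed at 0 in the α-KG control and with 2-HG, and was at 0.73 TPM with α-KG and 0.88 TPM in the 2-HG control. It lies on chromosome 15, from 74762056 to 74763620 on the minus strand (ENSMUSG00000034634.7).

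Counted together, 2 of the 6 members were called with 2-HG, both higher (Ly6a and Ly6c1), 2 were measured and within 2-fold (Ly6e and Ly6k), and 2 were not measured (Ly6d and Ly6g6c). The members were chosen on this contrast, so nothing is read from that share beside the 2.36% of all genes. The measured ones include Ly6c1 and Ly6k, which reached 5 TPM in that pair only through the 2-HG library. With α-KG, 1 of the 4 measured members was called, Ly6e, which was lower, where 4.21% of all genes were higher, 3.10% lower and 7.31% either way. None of the 3 measured members was called between the controls, where 5.99% of all genes were higher in the 2-HG control, 2.87% lower and 8.86% either way. At least 2-fold above each of the other 3 libraries, the 2-HG library held Ly6a and Ly6c1, and with them 0.566% of the 10420 genes at 5 TPM or more in a library, and 1.64% were at least 2-fold below each, no member among them.

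Across the wider Ly6/uPAR family, 43 of 53 listed names were in the table, 18 of them at 1 TPM or more in at least 1 library, and 11 measured in the 2-HG pair. Of these 11, the called genes were Ly6a and Ly6c1, higher, and Gml and Tex101, lower, beside 2.36% and 5.65% of all genes. Ly6a and Ly6c1 are among the genes chosen for their level, so nothing is read from that share. The family median was -0.07 against -0.12 over all genes, and it includes these chosen genes, so nothing is read from it either. Gml had 7.88 TPM in the α-KG control, 1.41 TPM with α-KG, 7.39 TPM in the 2-HG control and 1.39 TPM with 2-HG. Both treated libraries were thus low and both controls high for Gml, with differences of -1.88 with α-KG and -1.81 with 2-HG. Tex101 encodes a protein that works with that of Ly6k on mouse sperm. It was at 2.79, 1.24, 5.29 and 0 TPM in the order α-KG control, α-KG, 2-HG control and 2-HG. Tex101 reached the 5 TPM minimum of the 2-HG pair only through the 2-HG control.

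Of the 7 genes aligned with Ly6a (the other members, Ly6f and Ly6g), Ly6f and Ly6g were the most alike in coding sequence, and neither came near its level. Ly6f, identical to Ly6a at 84.6% of aligned coding bases, had 34.7 TPM in the α-KG control, 29.2 TPM with α-KG, 33.7 TPM in the 2-HG control and 18.9 TPM with 2-HG. Here the 2-HG library was the lowest, at a difference of -0.80, under the rule and opposite in sign to Ly6a. Ly6f shared no 50-base stretch with another annotated gene. Ly6g, the neutrophil antigen, identical to Ly6a at 83.1% of aligned coding bases, had 0.27 TPM in the α-KG control, listed at 0 with α-KG and in the 2-HG control, and at 3.70 TPM with 2-HG. It stayed under the 5 TPM minimum, and its highest value was in the same library as that of Ly6a.

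Other family genes at moderate levels varied less. Pinlyp, an inhibitor of phospholipase, was at 104 to 123 TPM, the highest family gene after Ly6a in every library. Cd59a, which protects cells from complement, was at 35.3, 23.8, 37.1 and 33.9 TPM in the order α-KG control, α-KG, 2-HG control and 2-HG, and its paralogue Cd59b was at 23.3, 21.2, 23.6 and 13.7 TPM. Gml2 was at 17.1, 8.77, 13.9 and 13.4 TPM in that order. None of these was called in either treated pair. Ly6g6d, beside Ly6g6c on chromosome 17, had 7.09 TPM in the α-KG control, 2.64 TPM with α-KG, 1.74 TPM in the 2-HG control and 3.74 TPM with 2-HG, and was called lower with α-KG (-1.15) and between the controls (-1.56). The α-KG control thus stood above the other libraries for Ly6g6d. Cd177, another neutrophil antigen, was at 4.09 TPM with 2-HG, 0.74 TPM in the 2-HG control, and listed at 0 in the α-KG pair. Ly6g6e, Lypd6b and Plaur reached at most 3.85, 3.78 and 1.78 TPM.

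**Figure D3:**
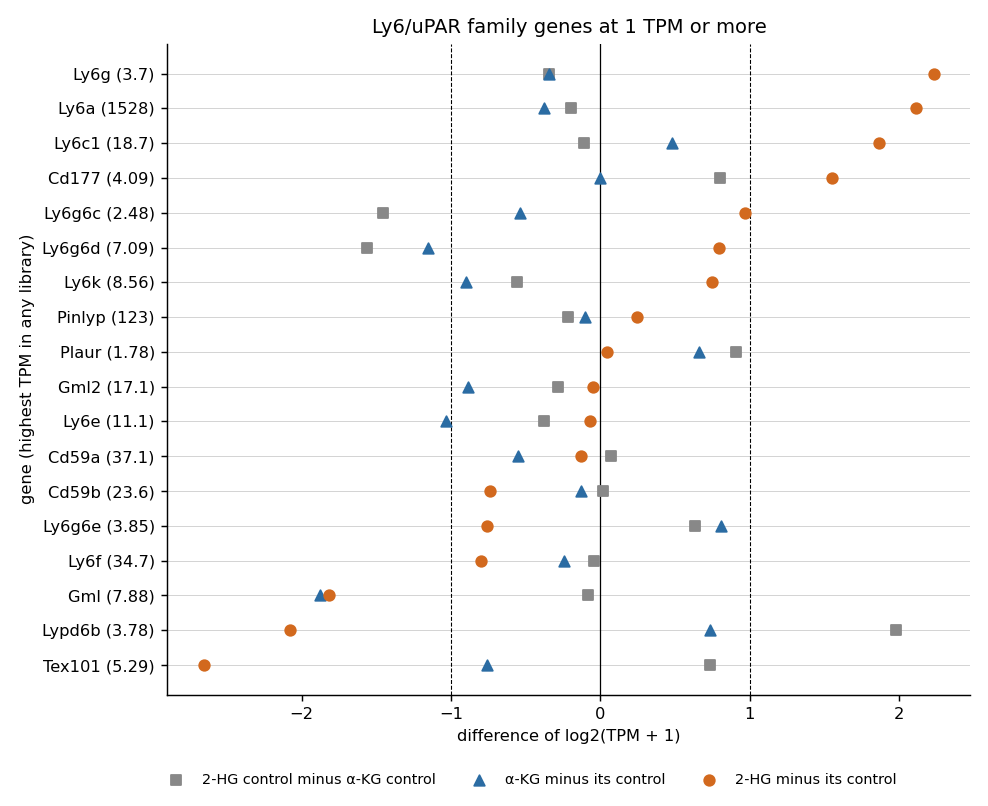
Difference of log2(TPM + 1) (horizontal axis) for the 18 Ly6/uPAR family genes at 1 TPM or more in at least 1 library, ordered by their difference with 2-HG, with the highest TPM in brackets; orange circles are 2-HG minus its control, blue triangles α-KG minus its control, grey squares 2-HG control minus α-KG control, and dashed lines mark 2-fold. Ly6a and Ly6c1 lie at 2.11 and 1.87 with 2-HG and inside the dashed lines in the other comparisons, while Gml lies near -1.8 in both treated pairs.

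Ly6a, Ly6c1 and Ly6f belong to the chromosome 15 block, whose genes differed in their order of levels. The table holds 30 annotated genes from Ly6d to Ly6f, a span of 510 kb, of which 9 reached 1 TPM in a library and 10 were at 0 in all 4. Between Ly6a and Ly6c1 lie a long noncoding RNA gene and a pseudogene, both listed at 0. Ly6e, 43 kb from Ly6a on the other side, was nearly level in the 2-HG pair, at -0.07. The long noncoding RNA RP23-458B6.16, beyond Ly6c1, had 9.34 TPM in the α-KG control, listed at 0 with α-KG, and at 1.74 and 3.15 TPM in the 2-HG control and the 2-HG library. Its high value was thus in the α-KG control.

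**Figure D4:**
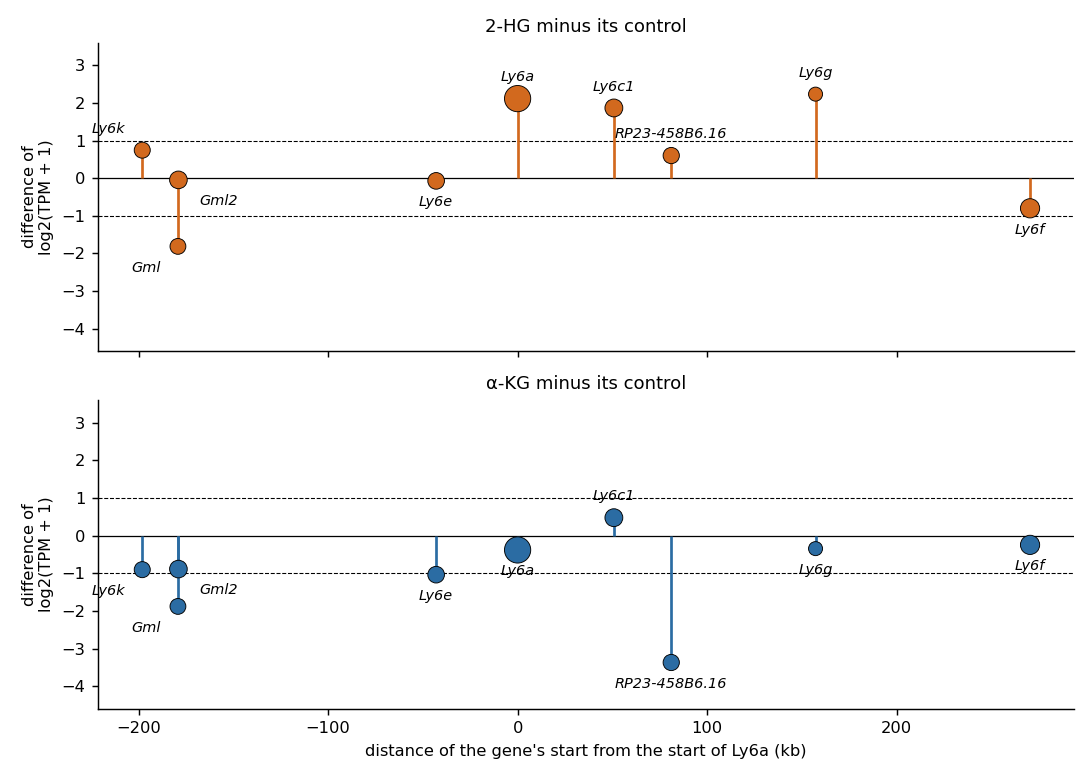
The 9 genes of the chromosome 15 block at 1 TPM or more, placed by the distance of their start from that of Ly6a in kb (horizontal axis), with the difference of log2(TPM + 1) from the own control (vertical axis) for 2-HG (above) and α-KG (below); larger points have a higher highest TPM, and dashed lines mark 2-fold. With 2-HG, Ly6a, Ly6c1 and Ly6g lie above the upper line, Gml lies below the lower one at -1.81, and Ly6f lies at -0.80.

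Promoters are shown for Ly6c1 and Ly6f, since these duplicated genes had differences of opposite sign in the 2-HG pair. Of the members, 2 of 6 had an entry in the RefSeq promoter table (GRCm38.p6), Ly6c1 and Ly6g6c. Each window holds 250 bases before and 50 after a gene start, and Ly6c1 has a second window for another start. Capitals mark TATAAA and CCAAT, searched on both strands, and the marked motifs do not overlap. The Ly6c1 window is chr15:75048788-75049087 on the minus strand and the Ly6f window chr15:75268171-75268470 on the plus strand.
Ly6c1: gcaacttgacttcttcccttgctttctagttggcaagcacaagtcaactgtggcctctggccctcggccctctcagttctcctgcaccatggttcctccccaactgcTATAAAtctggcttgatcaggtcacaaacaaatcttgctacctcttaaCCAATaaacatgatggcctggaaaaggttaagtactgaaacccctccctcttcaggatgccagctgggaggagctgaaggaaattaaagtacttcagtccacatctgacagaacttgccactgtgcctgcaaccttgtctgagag
Ly6f: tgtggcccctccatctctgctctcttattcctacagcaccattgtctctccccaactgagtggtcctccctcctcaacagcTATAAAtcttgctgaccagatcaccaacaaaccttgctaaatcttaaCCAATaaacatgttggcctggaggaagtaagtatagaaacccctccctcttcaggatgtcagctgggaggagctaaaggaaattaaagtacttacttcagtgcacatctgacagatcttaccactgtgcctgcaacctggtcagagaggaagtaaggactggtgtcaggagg

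These windows were identical at 215 of 250 aligned bases (86.0%), and each held 1 TATAAA and 1 CCAAT. Of the 32851 windows of the table, 13.6% held TATAAA and 37.4% held CCAAT. The interferon-stimulated response element, searched as GAAA, any 2 bases and GAAA, and the gamma-activated site, searched as TTCNNNGAA, were in neither window, nor in the other windows of Ly6c1 or that of Ly6g6c. They were in 3.44% and 8.30% of all windows, searched on both strands.

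Interferon-responsive genes were looked at because Ly6a, Ly6c1 and Ly6e belong to them in adult cells. Of 42 listed genes, 5 were measured in the 2-HG pair, none was called higher, and 1 was called lower, beside 2.36% and 5.65% of all genes. That gene was Ifitm3, which restricts virus entry, at 4.82 TPM in the α-KG control, 3.70 TPM with α-KG, 7.33 TPM in the 2-HG control and 0.88 TPM with 2-HG. Bst2, which encodes tetherin, was at 35.7, 29.2, 51.7 and 29.0 TPM in the same order, and Tap1, a peptide transporter, at 5.53, 7.40, 10.7 and 7.67 TPM. Their differences with 2-HG were -0.81 and -0.44, and the 2-HG control was the highest library for all of Ifitm3, Bst2 and Tap1. B2m, the light chain of class I histocompatibility molecules, went the other way at a high level, with 273, 274, 278 and 327 TPM in the same order and a difference of 0.24 with 2-HG. The median of the 5 genes was -0.44, against -0.12 over all genes, and with the α-KG control as the reference it turned to 0.26. With α-KG, 1 of 5 measured genes was called higher and 1 lower, beside 4.21% and 3.10% of all genes. Oasl2, the higher one, was at 2.25, 12.4, 2.05 and 0.80 TPM in the same order. Ifi27, the lower one, was at 5.21, 1.32, 1.05 and 2.70 TPM, so its high value was in the α-KG control. Ifi27 was also called lower between the controls (-1.60). Isg15 and Ifit3, widely used reporters of an interferon response, were listed at 0 in all 4 libraries.

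Of 18 listed receptor and JAK-STAT genes, 8 were measured in the 2-HG pair, and none was called, beside 8.01% of all genes. All 8 were below 0, at a median of -0.47 against -0.12 over all genes. Between the controls, the 2-HG control was the higher library for 7 of 8 measured genes, with a median of 0.43, and Ifngr1 was called higher (4.17 and 17.5 TPM). Set against the α-KG control, the 2-HG library had 3 of 7 measured genes above 0 and 4 below, at a median of -0.11, so the shared sign did not hold against the other control. Ifnar2, an interferon receptor chain, was at 15.2, 12.5, 21.4 and 12.8 TPM in the order α-KG control, α-KG, 2-HG control and 2-HG. Ifngr2 was at 3.42, 3.43, 5.16 and 2.79 TPM and the kinase gene Tyk2 at 5.21, 11.3, 7.55 and 4.74 TPM. For Ifnar2 and Ifngr2 the 2-HG control was the highest library, and for Tyk2 the α-KG library was. The interferon genes Ifnb1 and Ifng were listed at 0 in all 4 libraries.

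The GPI anchor that holds Ly6 proteins is built in the endoplasmic reticulum by a chain of PIG enzymes and trimmed afterwards. Of 31 listed genes, 30 were in the table and 26 were measured in the 2-HG pair, 13 above 0 and 13 below, with 1 called higher and 2 lower, where 8.01% of all genes were called in either direction. Dpm1, which makes the mannose donor, had 74.3 TPM in the α-KG control, 140 TPM with α-KG, 85.7 TPM in the 2-HG control and 194 TPM with 2-HG. Both treated libraries were above both controls for Dpm1, with a difference of 1.17 with 2-HG and 0.91, under the rule, with α-KG. Pigl, an enzyme of the second step, had 24.2, 22.2 and 32.4 TPM in the α-KG control, the α-KG library and the 2-HG control, and at 8.43 TPM with 2-HG. Pgap2, of anchor remodelling, was at 94.2, 82.7 and 103 TPM in the same libraries and at 35.1 TPM with 2-HG. For both Pigl and Pgap2 the 2-HG library was the lowest. The median of the list was 0.04. With α-KG, 1 of 28 measured genes was called, beside 7.31% of all genes. That gene was Pign, at 9.69, 22.1, 16.9 and 18.3 TPM in the order α-KG control, α-KG, 2-HG control and 2-HG. The α-KG control was thus its lowest library.

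Genes with a pattern like that of Ly6a were sought among 9030 protein-coding genes at 5 TPM or more in a library. The measure was the Euclidean distance between log2(TPM + 1) values centred on each gene's mean over the 4 libraries, so genes that are high with 2-HG come first by construction. The nearest were Csrp2bp, a subunit of a histone acetyltransferase complex, at a distance of 0.09, and S100a3, a calcium-binding protein, at 0.18. Dusp26, a phosphatase, followed at 0.41, and Gal, the neuropeptide galanin, and Lpcat1, a phospholipid acyltransferase, both at 0.47. Csrp2bp had 11.4 TPM in the α-KG control, 7.82 TPM with α-KG, 9.15 TPM in the 2-HG control and 45.1 TPM with 2-HG. S100a3 had 0.71, 0.56 and 0.63 TPM in the α-KG control, the α-KG library and the 2-HG control, and at 6.14 TPM with 2-HG. The relatives Ly6c1, Ly6k and Ly6e stood farther off, at 0.79, 1.30 and 1.87, and ranked 20th, 223rd and 3360th in nearness among the 9030 genes. S100a3, Dusp26, Gal and Lpcat1 were below 5 TPM in the other libraries, with highest values there of 0.71, 1.35, 2.12 and 4.86 TPM, and so reached the minimum only through the 2-HG library. The distance rests on 4 libraries and is a description.

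**Figure D5:**
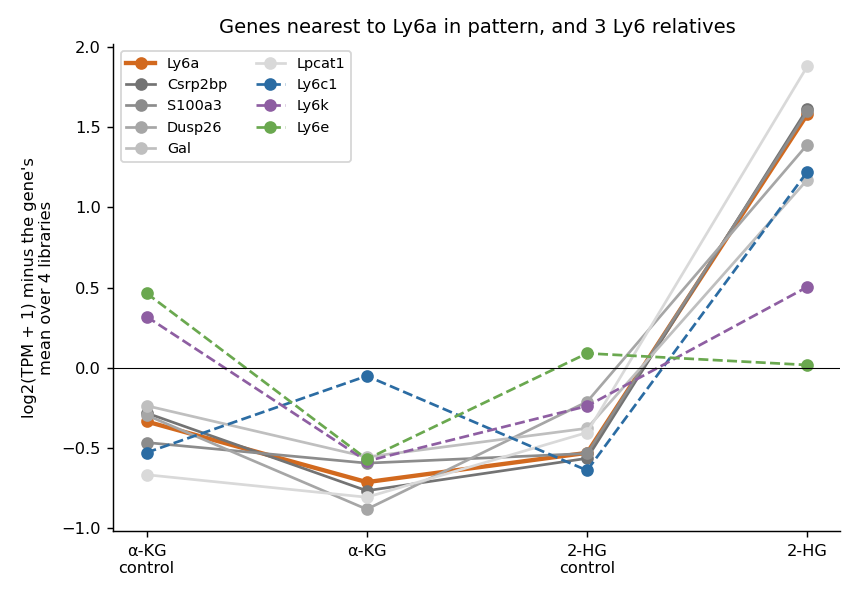
Log2(TPM + 1) minus the gene's mean over the 4 libraries (vertical axis) in each library (horizontal axis), for Ly6a (thick orange), the 5 protein-coding genes nearest to it (grey) and the relatives Ly6c1, Ly6k and Ly6e (dashed). The nearest genes, picked for this likeness, have their high value in the 2-HG library, Ly6c1 does so at a distance of 0.79, and Ly6e has no high value there.

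Because Ly6a, Ly6c1 and Ly6g mark blood cells, markers of cells other than the embryo's were summed in each library. Over 13 blood genes the sums were 12.8, 30.6, 23.3 and 20.6 TPM in the order α-KG control, α-KG, 2-HG control and 2-HG, of which the lysosomal Cd68 made up 10.3, 30.0, 19.3 and 18.5 TPM. The pan-leukocyte gene Ptprc did not exceed 0.10 TPM, and Csf1r, Hbb-bs and Hbb-bt were listed at 0 in all 4. Over 8 haematopoietic progenitor genes the sums were 13.4, 12.6, 27.3 and 12.7 TPM, with Cd34 at 0 in all 4 and Kit at 1.61 TPM with 2-HG and at most 0.10 TPM elsewhere. Of these, Gata2 was called lower with 2-HG, from 17.1 to 3.83 TPM. Over 7 endothelial genes the sums were 16.4, 19.0, 15.9 and 14.3 TPM, with Kdr at or below 0.01 TPM. Pecam1 made up 9.14, 9.19, 5.58 and 9.89 TPM of these sums, and Vwf 5.76, 6.02, 8.37 and 3.87 TPM.

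A list of 12 neutrophil genes was added after Ly6g and Cd177 had been seen. Its sums were 114, 91.3, 136 and 104 TPM in the same order, of which Csf3r made up 111, 90.3, 134 and 94.7 TPM. S100a9, Ngp, Ltf, Camp and Elane, abundant in neutrophils, were listed at 0 in all 4 libraries. Prtn3, also on the list, was at 2.10, 0.66, 1.46 and 1.67 TPM in the same order. The sums of cumulus and granulosa, oviduct and fibroblast markers did not exceed 10.9, 2.02 and 2.10 TPM, and each of these was highest with 2-HG, beside the high Ly6a value. In the other libraries these sums reached at most 6.36, 1.60 and 1.28 TPM. Single genes made up most of the 2-HG sums, Amhr2 with 8.45 TPM, Ovgp1 with 1.70 TPM and Thy1 with 1.83 TPM. Star, also of the cumulus list, was at 1.53, 1.08, 1.59 and 2.37 TPM in the same order. Has2, Ptx3, Tnfaip6, Amh and Fshr of the cumulus list were listed at 0 in all 4 libraries. Their part in the Ly6 values was not tested.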

How the data were processed

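The deposited table gives TPM per gene, computed by the authors, in 1 column for each of the 4 libraries, and each column summed to between 999891 and 999935. The authors' tools were HISAT2, StringTie, DESeq2, Picard and Trimmomatic, and their builds GRCm38.p6 and mm10, per the submitters' processing notes. Versions and roles are not given in the sources used here. Lysis was in Triton X-100, and 1 ng of pre-amplified cDNA went into each library, per the labels' protocols. No counts were used, so depth is unknown and no interval or detection limit is given. Another 8 columns of a second worksheet were not used here.

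Differences are of log2(TPM + 1). The pseudocount of 1 understates the change of low genes. Groups follow the treatment labels, and no test was run. Scripts used Python 3.11.15 and pandas 2.3.3, and the call rule was tested on simulated data. IDs were matched to GENCODE M21, and 53620 of 53715 matched. The members and lists were chosen with earlier results of these data known, and the neutrophil list after values had been seen. The text names all members, family genes at 1 TPM or more, the 3 largest differences with 2-HG of a pathway list and its called genes, and the 5 genes nearest to Ly6a.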

Additional observations from a re-analysis of the deposited data

How the results depend on the processing

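Other pseudocounts (0.1 and 5), median-of-ratios scaling, the mean TPM of both controls and the other pair's control gave Ly6a differences with 2-HG of 1.92 to 2.23. The same settings, and dropping the 5 TPM minimum, each left 2 members called with 2-HG. The count of members called with α-KG moved from 1 to 2 with a pseudocount of 0.1 and to 0 with a pseudocount of 5, against the mean of both controls and against the 2-HG control. The first of these adds Ly6k, at -1.06, and the others bring Ly6e to -0.70, -0.86 and -0.66, under the rule. Without the minimum, 1 member was called between the controls, 7 family genes in place of 4 and 3 interferon-stimulated genes in place of 1 with 2-HG. The family count with 2-HG fell to 3, with 1 lower, at a pseudocount of 5, against the mean of both controls and against the α-KG control. Against the α-KG control no interferon-stimulated gene was called with 2-HG, a count of 0, because Ifitm3, still at a difference of -1.63, was below 5 TPM in both libraries. Median-of-ratios scaling moved the median of all genes in the 2-HG pair from -0.12 to -0.01, and the split of calls from 232 higher and 556 lower to 297 and 443. Of 73 values of single members under these settings, 58 moved by less than 1.5-fold and 15 by more, all of these in Ly6d and Ly6g6c, and 5 changed sign, in Ly6d, Ly6e and Ly6g6c. No paired analysis was possible because each group holds 1 library. Missing replicates and unknown depth limit every value.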

Other observations

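Other genes of GPI-anchored surface proteins did not follow Ly6a as a group. Of 34 listed, 12 were measured in the 2-HG pair, 4 above 0 and 8 below, at a median of -0.34 against -0.12 over all genes, with 1 called higher and 1 lower, beside 2.36% and 5.65% of all genes. Efna1, an ephrin ligand, was called higher, at 20.9 TPM in the α-KG control, 29.5 TPM with α-KG, 45.3 TPM in the 2-HG control and 94.0 TPM with 2-HG, and the controls differed from each other by nearly as much (1.08 on the log2 scale, against 1.04 with 2-HG). Folr2, a folate receptor, was called lower, at 5.27 TPM in the 2-HG control and 1.73 TPM with 2-HG. Its relative Folr1, the highest gene of the list, was at 494, 462, 715 and 623 TPM in the order α-KG control, α-KG, 2-HG control and 2-HG. The blood cell antigens Cd52 and Thy1, picked after their values were seen, were listed at 0 in the 2-HG control and at 1.97 and 1.83 TPM with 2-HG. In the α-KG control these were at 1.48 and 1.17 TPM, so their low value stood in the 2-HG control.

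Ly6a made up 0.153% of all TPM with 2-HG and 0.0310% to 0.0404% in the other libraries. Of the summed TPM of the 6 members it took 94.0% to 97.7%.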
